A study of Mus musculus with 12 samples.

Results

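Expression was examined for 9 regulators of cytokine and interferon signalling (Stat2, Stat3, Stat6, Irf1, Irf2, Irf7, Irf9, Socs1 and Socs3) among the 78298 gene identifiers counted by RNA sequencing of mouse lung. The genes were chosen by name, with earlier results of these data known. Their counts beside the shares of all genes are therefore descriptive and no independent support. Each matched 1 identifier, and all 9 passed the filter on low counts that left 22190 genes. The 12 libraries came from pieces dissected by hand under a microscope. They cross tissue, LLC tumour or normal adjacent lung, with treatment, house dust mite (HDM) or VEH, and each of the 4 groups held 3 libraries. What LLC and VEH stand for is not spelled out in the labels, which also give no strain, genotype, sex, age, dose or length of treatment. Nothing in them says whether the libraries of a group came from different mice. P-values therefore measure only the spread between these libraries.

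STAT proteins are latent transcription factors that Janus kinases (JAKs) phosphorylate at cytokine receptors. STAT2 and IRF9 are subunits of ISGF3, the complex that carries type I interferon signals to interferon-stimulated response elements, and IRF7 amplifies production of type I interferon. IRF1 is induced by interferon gamma and activates antigen presentation genes, and IRF2 binds the same kind of element and often opposes it. STAT3 carries signals of the interleukin-6 family, and STAT6 those of interleukins 4 and 13, the cytokines of allergic airway disease. SOCS1 and SOCS3 are induced by STATs and shut the signal off, SOCS1 mainly at interferon receptors and SOCS3 mainly at the interleukin-6 receptor chain gp130.

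Several of these genes are themselves known targets of STATs and IRFs, so the promoter stretches that hold a sequence match to a STAT or IRF element are printed here. RefSeq lists 11 transcription starts for the 9 genes. The 250 bases upstream of each were searched on both strands for TTCNNNGAA (the gamma-activated or GAS element of STATs), TTCNNNNGAA (the wider spacing that STAT6 prefers) and GAAANNGAAA (the core of the interferon-stimulated response element, or ISRE). A match was found for 5 genes, and the matched letters are in capitals, 5' to 3' on the gene's strand.
Irf1: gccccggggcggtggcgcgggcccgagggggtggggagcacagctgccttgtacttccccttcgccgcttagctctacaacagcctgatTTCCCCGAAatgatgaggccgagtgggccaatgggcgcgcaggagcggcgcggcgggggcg
Stat2: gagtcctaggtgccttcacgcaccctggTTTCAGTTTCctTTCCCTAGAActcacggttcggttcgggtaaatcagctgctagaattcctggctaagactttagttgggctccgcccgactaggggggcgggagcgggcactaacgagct
Irf2: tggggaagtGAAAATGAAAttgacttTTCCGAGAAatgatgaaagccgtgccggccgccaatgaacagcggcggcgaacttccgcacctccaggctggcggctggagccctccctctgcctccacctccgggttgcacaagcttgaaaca
Socs1: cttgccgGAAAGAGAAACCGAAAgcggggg
Socs3: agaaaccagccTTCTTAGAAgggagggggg
In the GRCm39 build these stretches lie at chr11:53660662-53660811, plus strand; chr10:128106117-128106266, plus strand; chr8:47192530-47192679, plus strand; chr16:10603461-10603490, minus strand; and chr11:117860328-117860357, minus strand. The first 3 lie outside annotated exons of their gene (that of Irf2 within the gene's annotated span), and the stretches of Socs1 and Socs3 lie within exons of some annotated transcripts, which is why only 30 bases of each are shown. Irf1 carried a GAS match that began 90 bases before the first of its 2 starts, and Socs3 carried a different GAS match at 154 bases. Socs1 had a pair of overlapping ISRE matches at 83 and 77 bases. Irf2 had an ISRE match at 241 and a GAS match at 224 bases. Stat2 had an ISRE match on the opposite strand at 222 bases beside a match of the STAT6 spacing at 210 bases. Of all 32851 RefSeq starts, 7.02% hold a GAS match in the same window, 5.85% the STAT6 spacing and 2.98% an ISRE match. A match is a run of letters and not a measured binding site, and the absence of one says only that these letters are not in the window.

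Total counts per library ranged from 20608682 to 32765364. Normal pieces carried surfactant and alveolar markers, 13100 to 36000 CPM (counts scaled to the TMM-adjusted library total) summed over 6 genes, and tumours held 46.7 to 6740 CPM. A list of 5 cell cycle genes rose in full in tumours under both treatments. The series text calls the normal tissue matched, and library names carry a prefix that joins 1 normal and 1 tumour library. The main fit did not pair libraries, and the prefix as a block was an alternative. For 2 of the 6 prefixes the joined libraries have different treatment labels, 1 joining normal VEH replicate 2 to the tumour labelled HDM replicate 2 and 1 joining normal HDM replicate 3 to the tumour labelled VEH replicate 3. The labels do not say which name is right, so an exchange of treatment labels or of library names cannot be told apart from correct labels, and it would alter what every HDM-VEH value means. Labels were kept as given. For the STAT, IRF and SOCS regulators examined, calls that changed without these 4 libraries are given both ways. For the other gene lists only totals are given without these libraries, so a single call named there may not hold without them. In bulk tissue, fewer cells of a type and less RNA per cell cannot be told apart.

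Compared per kilobase of transcript, the 9 genes fell into a higher and a lower set in normal lung. Under VEH, Stat6 (25.4 ± 2.86 CPM per kilobase, SD, n = 3), Irf1 (23.3 ± 9.08), Stat3 (22.8 ± 5.21) and Socs3 (22.0 ± 18.5) were highest and did not differ beyond their spread. Irf2 (8.37 ± 1.06), Irf9 (6.77 ± 0.539), Stat2 (4.24 ± 0.751), Irf7 (3.94 ± 1.92) and Socs1 (2.15 ± 1.27 CPM per kilobase) followed. Irf7 spanned 2.04 to 5.87 and overlapped both Stat2 (3.69 to 5.09) and Socs1 (1.25 to 3.60). In VEH tumours Irf7 stood next to Irf1 at the top of the order, at 36.6 ± 10.6 against 37.1 ± 2.74 CPM per kilobase, and Irf2 had the lowest mean, 6.67 ± 0.847, with libraries (5.99 to 7.62) that overlapped Socs1 (7.08 to 9.72) and Stat2 (4.73 to 18.5). In HDM tumours Irf7 was back at 8.02 ± 4.90 and Irf1 at 13.1 ± 4.17 CPM per kilobase, below Stat6 (33.2 ± 4.62), Socs3 (25.4 ± 4.49) and Stat3 (19.2 ± 2.95).

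**Figure D1:**
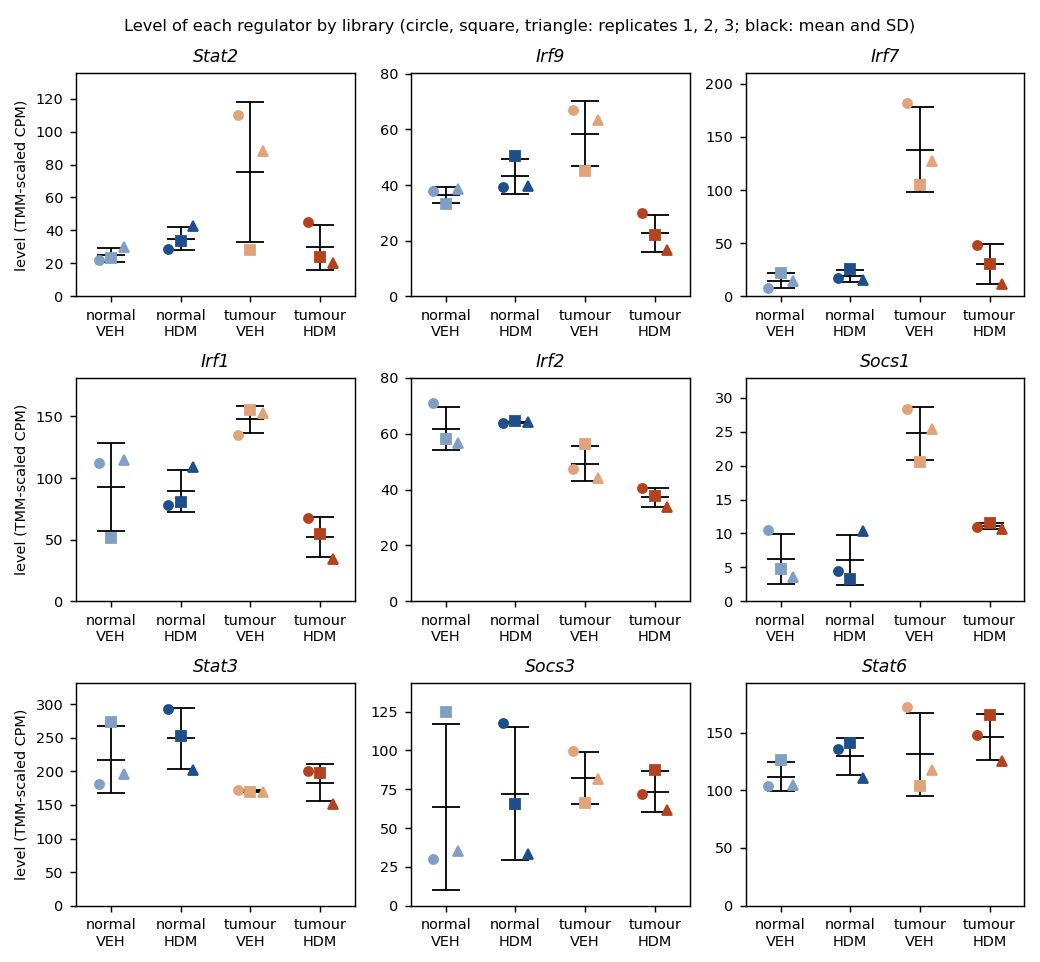
Level of each of the 9 genes in TMM-scaled CPM (vertical axis, from 0) in the 4 groups, with 1 point per library and the mean and SD of 3 libraries in black. Irf7, Irf1, Irf9 and Socs1 are higher in every VEH tumour than in every HDM tumour, whereas Stat3, Socs3 and Stat6 overlap between the tumour groups.

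Against adjacent lung, 4 of the 9 genes rose in tumours under VEH (Irf7, Socs1, Stat2 and Irf9) and none fell, where 38.9% of all genes tested were changed, 18.2% higher and 20.6% lower. Under HDM, none of the 9 rose and 2 fell (Irf2 and Irf9), where 51.9% of all genes were changed, 23.0% higher and 28.9% lower. The share of the 9 changed is close to that of all genes under VEH and below it under HDM. Calls used edgeR's quasi-likelihood test with Benjamini-Hochberg adjustment over the 22190 genes and a threshold of 0.05. Under VEH the count was 2 without normal VEH replicate 1, tumour VEH replicate 1 or tumour VEH replicate 3, and under HDM it was 4 without normal VEH replicate 2. Libraries of tumour and lung did not overlap for 6 of the 9 genes under VEH and 5 under HDM, where the same held for 52.4% and 63.1% of all genes. Median log2 changes of the 9 genes were 0.67 under VEH and -0.23 under HDM, beside -0.11 and -0.08 over all genes. Scaling by library size alone moved the median of all genes to 0.03 and 0.10 and left these 6 calls in place.

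HDM was compared with VEH within each tissue as labelled. In adjacent lung edgeR called none of the 9 genes, where it called 0.00% of all genes. None of the 9 had an unadjusted p below 0.05, where 5.54% of all genes did. DESeq2 also called none of the 9, where it called 43 of 22190 genes. Irf9 alone did not overlap between HDM and VEH lung, where 10.3% of all genes did not. In tumours edgeR also called 0, where 0.0946% of all genes (21) were changed, but 6 of the 9 had an unadjusted p below 0.05 (Irf9, Irf1, Irf7, Irf2, Stat2 and Socs1), where 16.7% of all genes did. All 6 were lower under HDM, where 11.3% of all genes had such a p and were lower. For 5 of the 9 the libraries of the tumour groups did not overlap, each lower under HDM, where 22.0% of all genes did not overlap and 10.7% were lower. DESeq2 called 3 of them (Irf9, Irf1 and Irf7), where it called 1311 of 22190 genes. The test of whether the tumour-lung difference depended on treatment called 0 of the 9 with edgeR, where 0.00% of all genes were called, and 5 had an unadjusted p below 0.05, where 9.39% of all genes did. DESeq2 called 2 in that test (Irf9 and Irf7), where it called 222 of 22190 genes. With the prefix as a block, where HDM-VEH differences can be estimated only because 2 prefixes hold both labels, the tumour differences moved to -0.73 ± 0.35 for Irf1, -0.23 ± 0.47 for Socs1, -1.77 ± 0.38 for Socs3 and -3.06 ± 0.64 for Irf7 (edgeR adjusted p 0.546, 0.89, 0.32 and 0.325). These comparisons share groups, since the VEH tumours enter both the tumour-lung and the HDM-VEH difference.

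**Figure D2:**
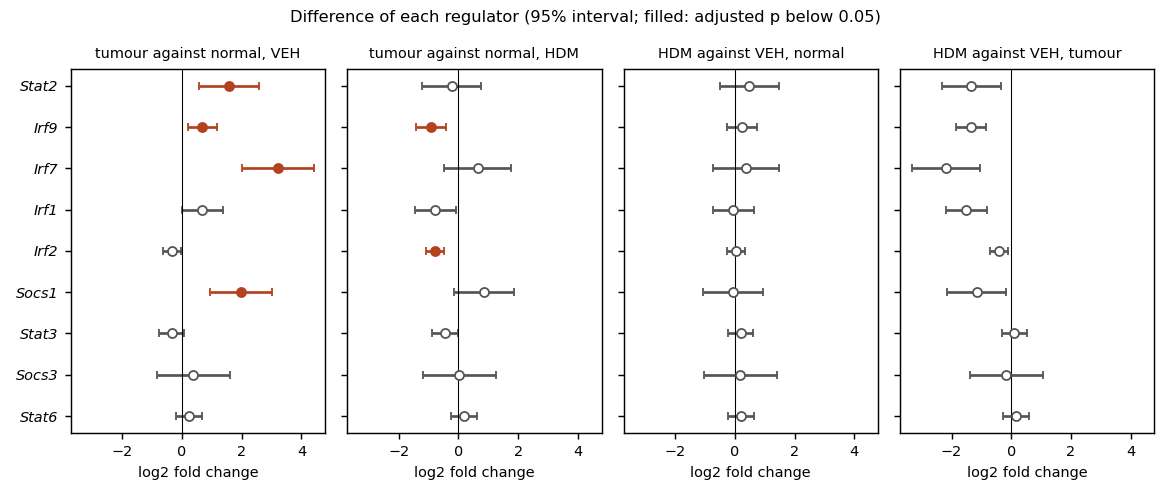
Log2 fold change of each gene with its 95% interval in the 4 comparisons, from the edgeR fit of all 12 libraries, with filled red points for an adjusted p below 0.05. Irf7 has the largest change among the 9 under VEH (3.21), and in HDM against VEH tumours the intervals of Stat2, Irf9, Irf7, Irf1, Irf2 and Socs1 lie below 0 though none passed the adjusted threshold.

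The subunits of ISGF3 were at their highest in VEH tumours. Stat2 (ENSMUSG00000040033, chromosome 10, 128106352 to 128128735) was at 21.8, 23.3 and 30.2 CPM in normal VEH, 29.0, 33.6 and 42.5 CPM in normal HDM, 110, 28.0 and 88.4 CPM in tumour VEH and 45.3, 24.1 and 20 CPM in tumour HDM libraries, each in the order of replicates 1, 2 and 3. VEH tumours 1 and 3 stood far above all other libraries, and VEH tumour 2 lay within the range of normal lung. The log2 change in tumour under VEH was 1.58 ± 0.45 (SE, adjusted p 0.0199). It was 1.51 without the libraries of conflicting prefixes and 1.12 with the prefix as a block, and not called in either (adjusted p 0.154 and 0.187). The call was also lost without normal VEH replicate 1 (1.5) or 2 (1.54) or tumour VEH replicate 1 (1.32) or 3 (1.55), with adjusted p from 0.0506 to 0.0677. VEH tumour 2 also carried the most lung epithelium of the VEH tumours, 6740 CPM of alveolar markers against 1760 and 1650, and 17800 CPM of 4 airway markers against 419 and 5770, whose part in its Stat2 level was not tested. Under HDM the tumour-lung change of Stat2 was -0.23 ± 0.44 (adjusted p 0.68), and between HDM and VEH tumours it was -1.34 ± 0.45 (adjusted p 0.213).

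Irf9 (ENSMUSG00000002325, chromosome 14, 55841028 to 55847812), the DNA-binding subunit of ISGF3, was the gene with opposite calls in the tumour-lung comparisons. It was at 37.8, 33.1 and 38.4 CPM in normal VEH, 39.4, 50.5 and 39.6 CPM in normal HDM, 67.0, 45.2 and 63.3 CPM in tumour VEH and 29.8, 21.9 and 16.6 CPM in tumour HDM. Every VEH tumour lay above every VEH lung, and every HDM tumour lay below every HDM lung. The changes were 0.68 ± 0.22 under VEH (adjusted p 0.0332) and -0.92 ± 0.22 under HDM (adjusted p 0.00606). Neither call held without the libraries of conflicting prefixes (0.66, adjusted p 0.175, and -0.84, adjusted p 0.0831). With the prefix as a block the VEH call was lost as well (0.62, adjusted p 0.084). Leaving out 1 library lost the VEH call in 5 of 12 fits, those without normal VEH replicate 1, 2 or 3 or tumour VEH replicate 1 or 3 (log2 changes 0.62 to 0.72). HDM tumours were 2.57-fold lower than VEH tumours (log2 change -1.36 ± 0.23, unadjusted p 8.9e-05, adjusted p 0.0584), which passed with no filter on low counts (adjusted p 0.0171), with every library at 10 counts or more (0.0308) and in DESeq2 (4.03e-05). The difference between the tumour-lung changes was -1.61 ± 0.32 (edgeR adjusted p 0.29, DESeq2 0.00496). The span of Irf9 overlaps that of Rnf31 on the same strand, with 8662 counts against 12338.

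Irf7 (ENSMUSG00000025498, chromosome 7, 140842619 to 140846398), the amplifier of type I interferon, had the widest range of the 9, 23.6-fold from the lowest to the highest library. It was at 7.72, 22.2 and 14.7 CPM in normal VEH, 17.1, 26.0 and 15.0 CPM in normal HDM, 182, 105 and 127 CPM in tumour VEH and 48.6, 30.7 and 11.6 CPM in tumour HDM. All VEH tumours stood above all other libraries, and HDM tumour 3 lay below every normal HDM library. Irf7 rose 9.26-fold in tumour under VEH (log2 change 3.21 ± 0.54, adjusted p 0.00182), and this call held in all 12 fits that left out 1 library (2.90 to 3.62) and without the libraries of conflicting prefixes (3.78, adjusted p 0.0228). Under HDM the change was 0.64 ± 0.50 (adjusted p 0.303), or 1.18 and called without tumour HDM replicate 3 (adjusted p 0.0463). HDM tumours differed from VEH tumours by -2.19 ± 0.52 (edgeR adjusted p 0.145, DESeq2 0.0022). Irf7 overlaps Phrf1 on the opposite strand, which had more counts (18463 against 15084), and whether counting used the strand is not given in the sources used here.

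The activator Irf1 and its antagonist Irf2 had different patterns across the groups. Irf1 (ENSMUSG00000018899, chromosome 11, 53660812 to 53669200) was at 112, 51.1 and 115 CPM in normal VEH, 78.3, 80.5 and 109 CPM in normal HDM, 135, 155 and 153 CPM in tumour VEH and 67.5, 54.3 and 34.5 CPM in tumour HDM. VEH tumours were above and HDM tumours below all normal libraries of the same treatment, yet neither tumour-lung change was called (0.67 ± 0.31, adjusted p 0.107, and -0.78 ± 0.31, adjusted p 0.0561). The second lies close to the threshold. It was called with DESeq2 size factors (-0.84, adjusted p 0.0493), with every library at 10 counts or more (-0.91, 0.0319), with the compared groups alone in the fit (-0.8, 0.0474), without normal VEH replicate 2 (-0.78, 0.0151) and in DESeq2 (-0.84, 0.0365). The VEH change was called without tumour HDM replicate 3 (0.78, adjusted p 0.0434). HDM tumours were at 52.1 ± 16.6 CPM and VEH tumours at 148 ± 10.9 CPM, a log2 difference of -1.5 ± 0.32 (edgeR adjusted p 0.114, DESeq2 0.00204), or -0.73 with the prefix as a block. Opposite-strand genes over Irf1 had at most 2909 counts against 29125.

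Irf2 (ENSMUSG00000031627, chromosome 8, 47192222 to 47300501) was steadier. It was at 70.9, 58.1 and 56.6 CPM in normal VEH, 63.9, 64.4 and 64.1 CPM in normal HDM, 47.3, 56.3 and 44.3 CPM in tumour VEH and 40.4, 37.5 and 33.7 CPM in tumour HDM. Tumour libraries lay below the lung libraries of the same treatment in both comparisons. Irf2 fell under HDM (log2 change -0.79 ± 0.14, adjusted p 0.00108), also without the libraries of conflicting prefixes (-0.69, adjusted p 0.0344) and with library-size scaling (-0.61, adjusted p 0.00372). Under VEH the change was -0.33 ± 0.14 (adjusted p 0.0787), and it was called without tumour VEH replicate 2 (-0.43, adjusted p 0.0368) and with every library at 10 counts or more (-0.4, adjusted p 0.0472).

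Because both factors bind the same element, their ratio per kilobase was taken within each library. Irf1 exceeded Irf2 by 5.31, 5.12 and 6.41 times in VEH tumours and by 3.11, 2.70 and 1.91 times in HDM tumours. The ratio was 2.94, 1.63 and 3.78 in normal VEH and 2.28, 2.33 and 3.17 in normal HDM. VEH tumours thus stood above every other library, and HDM tumours lay within the range of normal lung. These ratios were not tested.

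**Figure D3:**
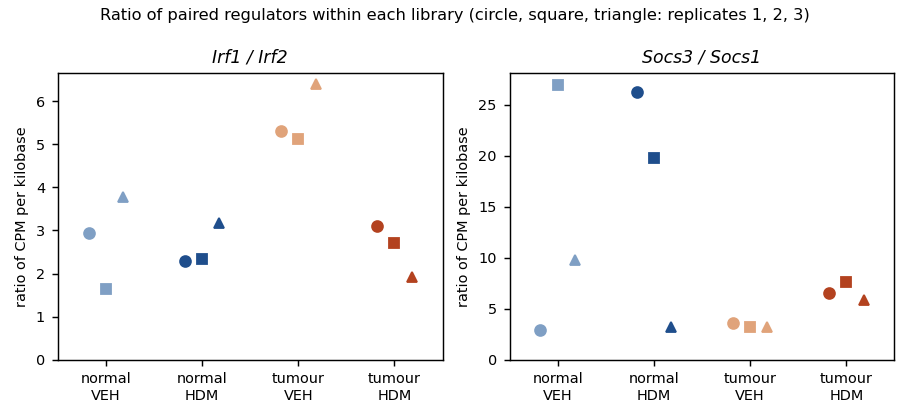
Ratio of Irf1 to Irf2 (left) and of Socs3 to Socs1 (right), each as CPM per kilobase within a library (vertical axes, from 0), in the 4 groups, with 1 point per library. The Irf1 to Irf2 ratio is above 5.1 in the 3 VEH tumours and at most 3.78 elsewhere, and the Socs3 to Socs1 ratio spans 2.90 to 26.9 in normal lung.

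Socs1 (ENSMUSG00000038037, chromosome 16, 10600104 to 10603875), the feedback inhibitor of interferon receptors, had the lowest counts of the 9, 86 to 281 in normal and 268 to 665 in tumour libraries. It was at 10.5, 4.69 and 3.62 CPM in normal VEH, 4.51, 3.32 and 10.3 CPM in normal HDM, 28.3, 20.6 and 25.4 CPM in tumour VEH and 11, 11.5 and 10.6 CPM in tumour HDM. VEH tumours were high as a group, and the 3 HDM tumours were nearly level with each other just above the highest normal HDM library. Socs1 rose under VEH (log2 change 1.98 ± 0.47, adjusted p 0.00809), in all 12 fits that left out 1 library (1.71 to 2.57) and without the libraries of conflicting prefixes (1.89, adjusted p 0.0394). Under HDM the change was 0.87 ± 0.46 (adjusted p 0.132), and it was called without normal HDM replicate 3 (1.60, adjusted p 0.0136) and with the prefix as a block (1.34, adjusted p 0.0311), and it was 1.56 without the libraries of conflicting prefixes (adjusted p 0.0514). HDM tumours differed from VEH tumours by -1.16 ± 0.46 (adjusted p 0.252), or by -0.23 with the prefix as a block. In lung the HDM-VEH difference was -0.05 ± 0.45, or -0.84 without the libraries of conflicting prefixes (adjusted p 0.56).

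Stat3 and its feedback inhibitor Socs3 shared a split within normal lung that Stat6, Irf7 and, in reverse, Irf1 also had. Stat3 (ENSMUSG00000004040, chromosome 11, 100775924 to 100830450) was at 181, 274 and 196 CPM in normal VEH, 293, 253 and 202 CPM in normal HDM, 172, 170 and 169 CPM in tumour VEH and 200, 198 and 151 CPM in tumour HDM. Socs3 (ENSMUSG00000053113, chromosome 11, 117856905 to 117860898) was at 30.2, 125 and 35.3 CPM in normal VEH, 118, 65.3 and 33 CPM in normal HDM, 99.6, 65.9 and 81.5 CPM in tumour VEH and 71.7, 87.3 and 61.5 CPM in tumour HDM. In normal lung the same 3 libraries, VEH replicate 2 and HDM replicates 1 and 2, were the highest for both genes. They were also the 3 lowest normal libraries for Irf1 (51.1, 78.3 and 80.5 CPM). For Stat6 (126, 136 and 141 CPM) and Irf7 (22.2, 17.1 and 26 CPM) they were the 3 highest normal libraries. Stat2, Irf2, Irf9 and Socs1 overlapped between these libraries and the other normal ones. The split was noticed in these same levels. How many of all genes part the same libraries was not counted, so it is not shown to be particular to these regulators. The 3 are the normal libraries whose name prefix joins them to a tumour labelled HDM.

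Markers of other cells and the mitochondrial share moved with that split. The summed level of 5 neutrophil markers was 797, 556 and 79.2 CPM in these 3 libraries and 18.4 to 40.5 CPM in the other 3. The sum of 5 B and plasma cell markers was 626, 1140 and 685 CPM against 24.2 to 40.5 CPM. The sum of 7 macrophage and monocyte markers was 9300, 12300 and 12700 CPM against 2680 to 6590 CPM. Alveolar markers were also higher (30400, 36000 and 32200 CPM against 13100 to 29500 CPM). Airway markers were lower (24600, 22200 and 53900 CPM against 55000 to 101000 CPM). So were endothelial (1030, 2020 and 2010 CPM against 2200 to 2330 CPM) and dendritic cell markers (39.5, 50.5 and 43.9 CPM against 57 to 78.8 CPM). Sums of T and NK cell, fibroblast and cell cycle markers overlapped. Mitochondrial genes took 2.52, 2.21 and 1.96% of counts in the 3 libraries and 3.62 to 5.38% in the others. No marker of these lists was at 0 over a group. The part of these cells and of the mitochondrial share in the Stat3, Socs3, Irf1, Stat6 and Irf7 levels was not tested.

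No tumour-lung change of Stat3 or Socs3 was called with all libraries. The Stat3 changes were -0.35 ± 0.19 under VEH (adjusted p 0.164) and -0.45 ± 0.19 under HDM (adjusted p 0.0726), with no overlap of the libraries in either. The first was -0.039 without the libraries of conflicting prefixes. The second was called with DESeq2 size factors (-0.51, adjusted p 0.0467), with every library at 10 counts or more (-0.59, 0.0259), with the prefix as a block (-0.64, 0.0352), without normal VEH replicate 2 (-0.45, 0.0418) and in DESeq2 (-0.51, 0.0404). For Socs3 the VEH value rested on 1 library. It was 0.37 ± 0.55 (adjusted p 0.61) with all libraries and 1.33 without normal VEH replicate 2, a rise (adjusted p 0.0383) that was also called without the libraries of conflicting prefixes (1.44, adjusted p 0.0267) and with the prefix as a block (1.29, adjusted p 0.0254). Between HDM and VEH lung, the Socs3 difference was 0.18 ± 0.55 (95% interval -1.04 to 1.40), and it was 1.5 without the libraries of conflicting prefixes (adjusted p 0.229). Between HDM and VEH tumours the differences were 0.10 ± 0.19 for Stat3 and -0.16 ± 0.55 for Socs3 (95% intervals -0.32 to 0.53 and -1.38 to 1.06). With the prefix as a block they were -0.36 ± 0.24 and -1.77 ± 0.38, the latter outside its interval. The difference between the tumour-lung changes of Socs3 was -0.34 ± 0.78, or -1.80 without the libraries of conflicting prefixes (adjusted p 0.329). Stat3 overlaps Stat5a on the opposite strand (5349 counts against 65051) and Socs3 overlaps Gm73339 (4658 against 23275).

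Measured against Socs1, Socs3 per kilobase was 26.9, 26.3 and 19.8 times as high in normal VEH replicate 2 and normal HDM replicates 1 and 2. It was 2.90, 9.81 and 3.2 times as high in the other normal libraries, 3.55, 3.22 and 3.23 times in VEH tumours and 6.56, 7.61 and 5.81 times in HDM tumours.

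Stat6 (ENSMUSG00000002147, chromosome 10, 127477821 to 127496862), the transducer of interleukins 4 and 13, differed least. It was at 104, 126 and 105 CPM in normal VEH, 136, 141 and 111 CPM in normal HDM, 172, 104 and 118 CPM in tumour VEH and 148, 165 and 125 CPM in tumour HDM. The groups overlapped in all 4 comparisons. Its log2 change under HDM against VEH was 0.21 in lung (95% interval -0.22 to 0.65) and 0.15 in tumours (-0.28 to 0.59), so a doubling lies outside both intervals. Tumour-lung changes were 0.23 ± 0.20 under VEH and 0.17 ± 0.20 under HDM (adjusted p 0.358 and 0.484). The first was 0.50 without the libraries of conflicting prefixes (adjusted p 0.176). Nab2 overlaps it on the opposite strand, with 15957 counts against 41071.

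The rest of the pathway was read from lists of other genes, also chosen with earlier results of these data known. They held 106 genes, 99 of which were tested. Of these, 28 rose and 11 fell in tumour under VEH, and 16 rose and 26 fell under HDM. The total under VEH, 39.4%, is near the 38.9% of all genes that changed, and the total under HDM, 42.4%, is below 51.9%. In HDM against VEH, 0 were called in lung (6 at an unadjusted p below 0.05, 0 in DESeq2) and 2 fell in tumours (39 at an unadjusted p below 0.05, 25 lower in DESeq2). Over all genes, 5.54% in lung and 16.7% in tumours had such an unadjusted p, and DESeq2 called 43 and 1311 of 22190. The VEH total of 39 was 16 without the libraries of conflicting prefixes, 25 with the prefix as a block, and 24, 20 and 24 without normal VEH replicate 1, tumour VEH replicate 1 or tumour VEH replicate 3. The 2 calls in tumours were 0 to 4 in fits that left out 1 library, and 0 without the libraries of conflicting prefixes. Tumour-lung calls of single genes on these lists are from the fit of all libraries. Which of them were lost in the other fits is not given here.

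Ligands were scarce. Of 14, 7 were too low to test. Ifna4 and Ifnl2, a type I and a type III interferon, had 0 counts in every library, which allows up to 3 counts in each. Ifnb1 had counts in a single VEH tumour library (4 counts, group mean 0.0566 CPM) and Il13 in a single HDM lung library (6 counts, group mean 0.0737 CPM). Ifng, the type II interferon, averaged 0.609 CPM in VEH tumours (0.0744 to 1.2 CPM) and had at most 2 counts in any lung library. In HDM tumours Ifng averaged 0.182 CPM, all from a single library (16 counts). The tumour-lung change of Ifng under VEH missed the threshold (adjusted p 0.057). Il27, a cytokine that signals through STAT3, rose under both treatments (1.41 and 1.45, adjusted p 0.0207 and 0.013). Lif, of the interleukin-6 family, rose under HDM (1.64, adjusted p 0.0369) and had a change of 1.28 under VEH (adjusted p 0.1).

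Receptor genes mostly had negative changes, 11 of 14 under VEH and 10 of 14 under HDM, with 5 and 7 that fell and 3 and 1 that rose, where 20.6% and 28.9% of all genes fell and 18.2% and 23.0% rose. Il10ra, the interleukin-10 receptor chain, and Il2rg, the common gamma chain, rose under VEH (1.37 and 0.92). A pair of receptor chains of the interleukin-6 family fell under both treatments. Lifr, the receptor of leukaemia inhibitory factor, fell by 2.91 and 3.23 on the log2 scale, and Il6st, which encodes gp130, by 0.91 and 1.15. Il13ra1, the interleukin-13 receptor chain upstream of STAT6, fell by 1.41 and 2.48. Ifnar1 and Ifnar2, the chains of the type I interferon receptor, moved apart: Ifnar1 rose by 0.49 and 0.71, and Ifnar2 had log2 changes of -0.58 and -0.86, both called. Ifnar2 was singled out as the partner of Ifnar1 after its values were seen. Of 4 kinases only Jak1 was called, and it rose under both treatments (0.74 and 0.60).

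Stat4, Stat5a and Stat5b were not called in any tumour-lung comparison. Among other IRFs, Irf5, a macrophage factor of inflammatory cytokine genes, rose under VEH (0.60, adjusted p 0.039), and Irf3 and Irf4 fell under HDM (-0.60 and -3.04). Irf3 induces type I interferon genes, and Irf4 acts in lymphocytes and dendritic cells.

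The SOCS family split by member. Cish and Socs2, which restrain STAT5 signalling, fell under both treatments (Cish by 2.50 and 3.62, Socs2 by 2.42 and 4.03 on the log2 scale). Socs6 rose under both (1.00 and 1.70). Socs7 fell under VEH (-0.48) and Socs5 under HDM (-0.44), and Socs4 was not called. Of 10 other inhibitors, 3 rose and 1 fell under VEH, and 5 rose and 1 fell under HDM. Of all genes, 18.2% rose and 20.6% fell under VEH, and 23.0% rose and 28.9% fell under HDM. Pias3, the inhibitor of STAT3, rose (0.59 and 1.09), as did Sh2b3, an adaptor that dampens JAK2 (0.83 and 0.82), and Pias1, of the same family of protein inhibitors as Pias3, fell (-0.72 and -0.71). Usp18, which blocks the type I receptor, was at 56.1 CPM in VEH and 12.6 CPM in HDM tumours and was not called (-2.16, adjusted p 0.16).

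Known targets, on lists also chosen with earlier results of these data known, were set beside their regulators. Shares over all genes were 18.2% higher and 20.6% lower in tumour under VEH, and 23.0% higher and 28.9% lower under HDM. Of 12 ISGF3 targets, 8 rose and none fell in tumour under VEH (median log2 change 2.08, beside -0.11 over all genes), and 1 rose under HDM (median 0.29). Ifi44 went from 6.36 to 53.7 CPM under VEH (3.08, adjusted p 0.0041) and Isg15, the ubiquitin-like interferon product, from 10.9 to 76.8 CPM (2.81, adjusted p 0.0052). Of 13 interferon gamma and IRF1 targets, 7 rose under VEH (median 1.46), and 2 rose and 4 fell under HDM (median -0.78). Irgm1, a GTPase of cell-autonomous immunity, rose by 2.23 under VEH (adjusted p 0.0013) and had a change of -0.08 under HDM (adjusted p 0.87).

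Between HDM and VEH tumours, all 12 ISGF3 targets and all 13 interferon gamma targets had negative changes (medians -1.93 and -2.22, beside -0.03 over all genes). Of these 25, edgeR called only the immunoproteasome genes Psmb8 and Psmb9 (-2.13 and -2.10, adjusted p 0.034 and 0.0446). On these lists 10 and 12 had an unadjusted p below 0.05, where 11.3% of all genes had such a p and were lower. DESeq2 called 7 and 12 lower, where it called 1311 of 22190 genes in either direction. The libraries did not overlap for 7 and 12 of the listed targets, where 10.7% of all genes were lower without overlap. In lung the medians of the same lists were -0.14 and -0.14.

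Targets of STAT3 were called in both directions. Of 12 STAT3 targets, 2 rose and 2 fell under VEH, and 2 rose and 3 fell under HDM (medians -0.47 and -1.15). Among all genes 18.2% rose and 20.6% fell under VEH, and 23.0% rose and 28.9% fell under HDM. Myc rose under both treatments (2.95 and 4.23), as did Il1rn, the interleukin-1 receptor antagonist (2.07 and 2.18), and Serpina3n, an acute-phase protease inhibitor, fell (-2.78 and -3.11). Of 12 STAT6 targets edgeR called 0 under VEH (2 at an unadjusted p below 0.05, 1 higher and 1 lower in DESeq2), and 5 fell under HDM, among them Mgl2 and Ccl17, genes of alternatively activated myeloid cells (-2.56 and -4.04), and Fcer2a, the low-affinity IgE receptor of B cells (-3.54). EdgeR called none higher under HDM, DESeq2 called 1 higher and 5 lower, and 9 of 12 had negative changes (median -1.54). Between HDM and VEH tumours, 10 of 12 STAT3 targets and 7 of 12 STAT6 targets had negative changes (medians -0.34 and -0.35). EdgeR called 0 of either list, and 1 and 4 had an unadjusted p below 0.05, where 16.7% of all genes did. DESeq2 called 1 and 3 lower, where it called 1311 of 22190 genes in either direction. The libraries did not overlap for 3 and 6 of the listed targets, where 22.0% of all genes did not.

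**Figure D4:**
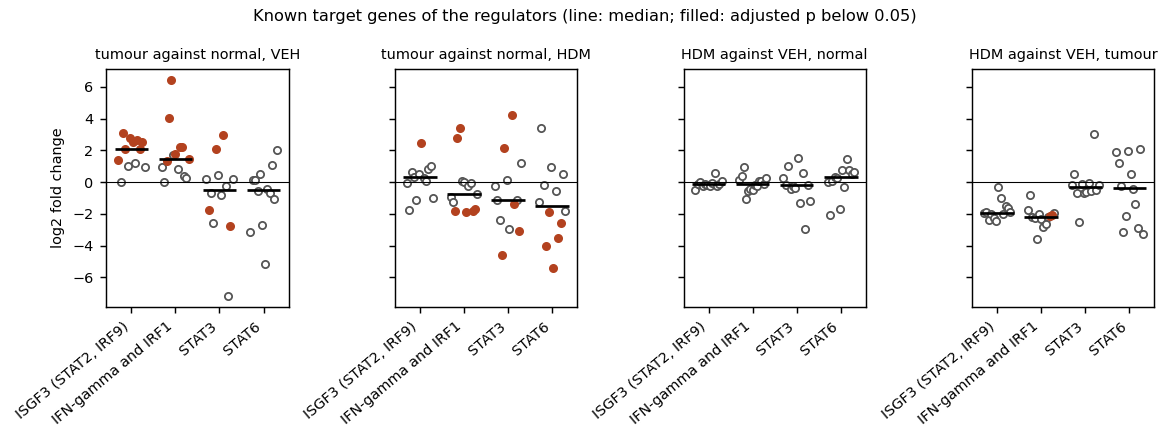
Log2 fold change (vertical axis) of each gene on the 4 lists of known targets in the 4 comparisons, with a line at the list's median and filled points for an adjusted p below 0.05. The medians of the ISGF3 and interferon gamma lists lie above 0 in VEH tumours against lung (2.08 and 1.46) and below 0 between HDM and VEH tumours (-1.93 and -2.22).

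Sums of T and NK cell and of endothelial markers, and the mitochondrial share, were lower in every HDM tumour than in every VEH tumour. The summed level of 10 T and NK cell markers was 76.2, 54.1 and 88.9 CPM in VEH tumours, 19.8, 23.3 and 3.28 CPM in HDM tumours, 15.8 to 28.1 CPM in normal VEH and 28.2 to 42.1 CPM in normal HDM. All 10 had negative changes between HDM and VEH tumours (median -2.28). EdgeR called 0, and 8 had an unadjusted p below 0.05, where 16.7% of all genes did. DESeq2 called 5, where it called 1311 of 22190 genes. No T or NK cell marker was at 0 over a group. HDM tumour 3, the library with the lowest sum, was also the lowest of all 12 for Stat2, Stat3, Irf1, Irf2 and Irf9. The sum of 7 macrophage and monocyte markers overlapped between the tumour groups, at 1920 to 3710 CPM under VEH and 1590 to 3880 CPM under HDM. The sum of 5 endothelial markers was 269, 414 and 283 CPM under VEH and 250, 132 and 91.1 CPM under HDM, with 5 of 5 changes negative (median -1.07, 3 at an unadjusted p below 0.05, 0 called by edgeR or DESeq2). All 4 airway markers had negative changes (median -3.79, 3 at an unadjusted p below 0.05, 0 called by edgeR and 2 by DESeq2). Their sums overlapped, at 419, 17800 and 5770 CPM in VEH and 686, 1100 and 2.49 CPM in HDM tumours. Other lists differed as well, with overlapping sums. Alveolar markers had 6 of 6 changes negative (median -1.26), dendritic cell markers 3 of 5 (-1.25) and B and plasma cell markers 4 of 5 (-0.99). Neutrophil markers had 5 of 5 changes positive (median 1.41). At an unadjusted p below 0.05 there were 1, 2, 1 and 0 on these lists, and edgeR called 0. Mitochondrial genes took 0.896 to 1.79% of counts in VEH tumours and 0.342 to 0.627% in HDM tumours. The part of these cells and of the mitochondrial share in the levels of the 9 genes was not tested.

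For each gene the 3 most similar profiles were sought among 10273 protein-coding genes, by the root-mean-square difference of centred log2 CPM over the 12 libraries. Irf9 lay nearest Tmem132a (0.18), Uba7 (0.21) and Tap2 (0.22), and Irf1 nearest Psmb10 (0.26), Nmi (0.30) and Tmem132a (0.32). Stat2 lay nearest Rigi (0.29), Parp14 and Parp11 (0.35 each), and Irf7 nearest Il2rb, Oas1a (0.53 each) and Ifi44 (0.54), the largest of these distances. Socs1 lay nearest Aif1 (0.31) and Socs3 nearest Plin2 (0.23). For the steadier genes the nearest were Susd6 for Stat3 and Rtn3 for Irf2 (0.09 each) and Abhd13 for Stat6 (0.11). These distances are not scaled by a gene's own SD in log2 CPM, which ran from 0.25 for Stat6 to 1.46 for Irf7. A smaller distance therefore does not mean a closer pattern.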

How the data were processed

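Per the labels' protocols, RNA came from dissected, frozen pieces, and paired-end sequencing followed dUTP library preparation, which keeps strand. Raw counts for each Ensembl gene identifier, with gene lengths and 1 column for every library, make up the deposited table, per the file headers. The submitters' processing notes name Trim Galore, STAR, featureCounts (Subread) and the mm39 build, without versions. The annotation and strand setting are not given in the sources used here. Of 78298 identifiers, 78168 occur in GENCODE M39 (GRCm39), which gave symbols and coordinates. Promoter sequences are from RefSeq (table built on GRCm38.p6) and were placed on GRCm39 by exact match.

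Counts were fitted in R 4.3.3 with edgeR 4.0.16 (filterByExpr, minimum count 10; TMM; robust quasi-likelihood; 1 coefficient per group; all 12 libraries), with Benjamini-Hochberg adjustment over 22190 genes. The fit was tested on simulated data. CPM values use TMM-scaled library sizes. Standard errors are the log2 change divided by the square root of F, and 95% intervals use the fit's degrees of freedom. Alternatives were DESeq2 size factors, library-size scaling, no filter, at least 10 counts in every library, DESeq2 1.42.0, fits of the compared groups, blocks for replicate number or library-name prefix, removal of 4 libraries, and leaving out each library.

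The 9 genes are all named. From each other list up to 3 called genes per direction were named, besides genes given as uncalled values. Like genes needed an average log2 CPM of at least 3. Lists were written from general knowledge. The members and lists were chosen with earlier results of these data known. Some listed genes are not reported here.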

Additional observations from a re-analysis of the deposited data

How the results depend on the processing

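No call of the 9 genes was made or lost by library-size scaling or by a block for replicate number. Same-numbered libraries did not deviate together (correlations -0.36 to 0.30), so the numbers give no pairing. Libraries joined by a prefix did not clearly do so either (-0.22 to 0.18). The block for replicate number left 0 of the 2 pathway calls between HDM and VEH tumours. Over single genes, 855 values kept direction and call, 41 changed sign, 26 gained a call and 14 lost one. The fit of only the compared groups equals the main one for the difference between tumour-lung changes. Low counts limit the ligands, and 3 libraries per group limit all tests. Why values changed was not tested.

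Members changed under VEH (4) numbered 2 to 5 with 1 library left out. Under HDM (2) they numbered 4 with DESeq2 size factors, with every library at 10 counts or more, in DESeq2 and with the prefix block (1 higher), 1 without the libraries of conflicting prefixes, and 2 to 4 with 1 library left out. Between HDM and VEH tumours (0) there was 1 with no filter and with every library at 10 counts or more, and 3 in DESeq2. The difference between tumour-lung changes had 2 in DESeq2 (0 in edgeR).

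Pathway genes changed under VEH (39) numbered 25 with the prefix block, 16 without the libraries of conflicting prefixes and 20 to 46 with 1 library left out. Between HDM and VEH tumours (2) they numbered 1 with DESeq2 size factors or library size, 6 with no filter, 7 with every library at 10 counts or more, 25 in DESeq2, 0 with the compared groups alone, with either block or without the libraries of conflicting prefixes, and 0 to 4 with 1 library left out. The difference between tumour-lung changes gave 9 in DESeq2 and 0 to 1 with 1 library left out.

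Signs changed only for log2 values that were not called. In tumour against lung under HDM, Stat2 was 0.18 without the libraries of conflicting prefixes, Stat6 -0.0034 with the prefix block, and Socs3 -0.039 with DESeq2 size factors and in DESeq2, -0.12 with every library at 10 counts or more, -0.017 with the compared groups alone, -0.42 with the prefix block and -0.36 without the libraries of conflicting prefixes. In lung, Irf1 was 0.021 and Socs1 0.046 with library size, and with the prefix block Irf1 was 0.34, Socs1 0.24 and Socs3 -0.058. In tumours, Stat3 was -0.36 and Stat6 -0.042 with the prefix block, and Stat6 was -0.0054 without the libraries of conflicting prefixes. With 1 library left out, values in lung spanned -0.34 to 0.13 for Irf1, -0.0068 to 0.16 for Irf2, -0.68 to 0.54 for Socs1 and -0.37 to 1.14 for Socs3. Under HDM they spanned -0.21 to 0.58 for Socs3 and -0.55 to 0.13 for Stat2, and in tumours -0.31 to 0.00052 for Socs3. For the difference between tumour-lung changes they spanned -1.30 to 0.21 for Socs3, -0.30 to 0.069 for Stat3 and -0.21 to 0.20 for Stat6.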
